A study of Mus musculus with 8 samples.

Results

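The interleukin-1 (IL-1) family was followed here through 10 genes in mouse Kupffer cells, which are macrophages that live in the liver sinusoids. The genes were taken from the deposited count table by symbol: the agonists Il1a, Il1b, Il18 and Il33, the antagonists and decoys Il1rn, Il18bp and Il1r2, and the receptor chains Il1r1, Il1rap and Il1rl1. All 10 were found among the 55414 genes of the table, and all 10 passed the filter on low counts. The cells were sorted by flow cytometry from the liver, 2 h after surgery on wild-type C57BL/6J animals. In 4 libraries the mice had caecal ligation and puncture (CLP) (gut contents leak into the peritoneum, a standard sepsis model), and in 4 they had sham surgery (Sham). The series as a whole asks how sepsis leads to hemolysis. The sources used here give no age, sorting gate or batch. Whether the 4 libraries of a group are 4 mice is not stated in the labels, and p-values here reflect only how these samples spread, which may be technical.

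IL-1 alpha and IL-1 beta both signal through the receptor IL-1R1 together with the accessory chain IL-1RAcP, encoded by Il1rap, and recruit MyD88 and IRAK kinases to activate NF-kappaB. The pathway is held in check by the receptor antagonist IL-1Ra, encoded by Il1rn, which occupies IL-1R1 without signalling, and by IL-1R2, a decoy that binds the ligand but lacks a signalling domain. IL-18 is restrained by its soluble binding protein, and IL-33 signals through ST2, encoded by Il1rl1, with the same accessory chain. IL-1 beta and IL-18 are made as precursors that caspase-1 cleaves in inflammasomes, so transcript levels do not measure the released cytokine.

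The libraries held 23311897 to 28724875 counts over genes. Values are CPM (counts scaled to a common library size) scaled by the trimmed mean of M-values (TMM), and changes were tested with edgeR's quasi-likelihood test, adjusted over all 14655 genes tested by the Benjamini-Hochberg method. Kupffer cell markers, led by Clec4f and Cd5l, summed to 21710 to 27170 CPM in CLP and 16038 to 21095.0 CPM in Sham, and 3 of 8 passed as higher. Of 12 neutrophil markers, led by Csf3r and S100a9, 9 were tested and passed as higher, but 4 of these (Cxcr2, Retnlg, Ltf and Ngp) had under 10 counts in a Sham library and could enter the test through CLP. Ly6g and Camp had 0 counts in every Sham library. The sum was 239 to 581 CPM in CLP and 101 to 139 CPM in Sham, most of it Csf3r, and 91.7 to 274 CPM and 18.0 to 27.1 CPM without that gene. S100a8 and S100a9 rose from 1.23 and 1.32 CPM to 51.9 and 62.2 CPM. Of 7 platelet markers tested 6 rose, among them Pf4 (148 against 18.1 CPM), and 3 of the 6 had under 10 counts in a Sham library. The exception was the most abundant, Clec1b, which had means of 234 CPM after CLP and 278 CPM after sham surgery and no call (lower under total-count scaling and without CLP replicate 1). Sums over the platelet list were 352 to 483 CPM in CLP and 247 to 331 CPM in Sham, most of it Clec1b. Without that gene they were 121 to 195 CPM and 15.2 to 27.9 CPM. Which cells gave the Clec1b counts was not tested. Sums for monocytes (Treml4, Plac8) were 573 to 754 CPM in CLP and 425 to 585 CPM in Sham, with 1 of 6 higher. Most of this was Treml4 and Plac8, and without Treml4 the sums were 225 to 370 CPM and 174 to 292 CPM. The marker called higher was F13a1, with means of 2.30 CPM in CLP and 0.596 CPM in Sham. Its log2 fold change was 1.95 ± 0.54 (edgeR adjusted p = 0.0104). Ly6c2 was low and not tested, with means of 0.561 CPM in CLP and 0.102 CPM in Sham. Chil3, also not tested, was at 0.999 and 0.0465 CPM. Ccr2 was low too, at 1.75 and 2.65 CPM, with no call. For hepatocytes (Alb, Fgb) the sums were 2704 to 3653 CPM in CLP and 1962 to 2840.2 CPM in Sham, with 1 of 8 higher. Among all genes tested 24.9% were higher and 29.5% lower. Under total-count scaling 0 Kupffer cell markers were higher and 1 lower, and 0 hepatocyte markers were higher and 4 lower. Under it 1 monocyte marker was higher and 2 lower, 8 neutrophil markers were higher and 0 lower, and 6 platelet markers were higher and 1 lower. The part of any of these cells in the results below was not tested, and in such bulk libraries a change in the number of cells of a type and a change in RNA per cell cannot be told apart. Across genes, CLP replicate 1 correlated with the other 3 CLP libraries at r = 0.968 to 0.972, against 0.986 to 0.987 among those 3.

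At 2 h after CLP, both sides of the IL-1 system were higher in the sorted cells. The ligands Il1a and Il1b rose about 24.1-fold and 10.7-fold, and the antagonist Il1rn rose 50.1-fold. The decoy Il1r2 rose 12.5-fold and the alarmin Il33 67.2-fold from a level near 0, whereas Il18 rose 2.07-fold and its inhibitor Il18bp 1.43-fold, a rise not seen under total-count scaling. Of the receptor chains, Il1rap alone passed, at 1.24-fold, and it too did not hold under that scaling. Of the 10 genes, 8 passed as higher (6 under total-count scaling), 0 as lower and 2 had no call, against 24.9% higher and 29.5% lower (54.3% in either direction) among all genes tested. The median log2 fold change of the 10 was 2.29, against -0.04 over all genes tested. In the same 8 genes the 4 CLP libraries lay above all 4 Sham libraries, as did 22.1% of all genes tested; in 27.3% they lay below, which makes 49.5% without overlap. Il33 entered the test through its CLP libraries, so its presence among the calls is no separate evidence. By size of the log2 fold change, 32 genes lay above Il33, 41 above Il1rn, 101 above Il1a, 190 above Il1r2 and 224 above Il1b.

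**Figure D1:**
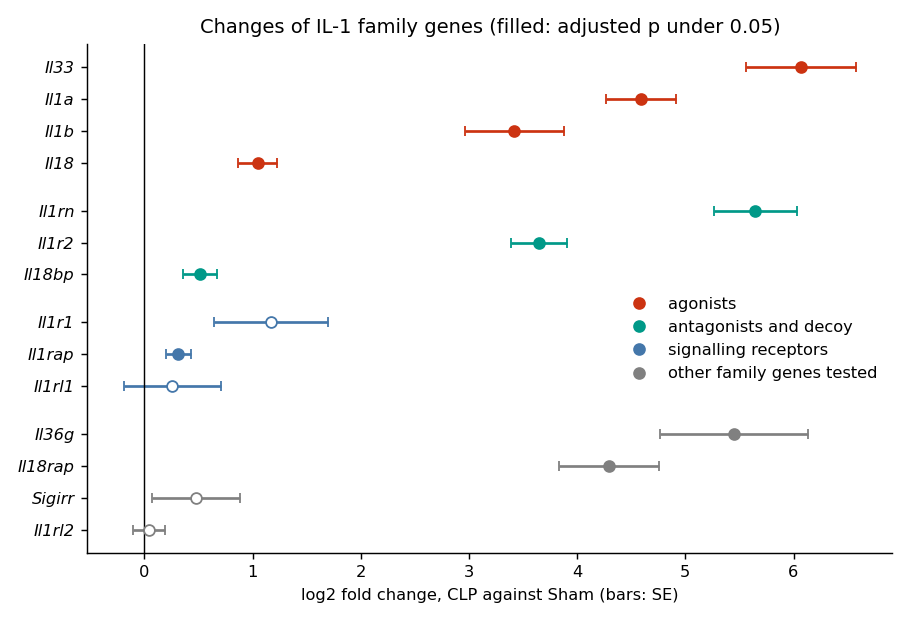
Log2 fold changes of the 10 IL-1 family genes and of 4 further family genes that could be tested, CLP against Sham, with bars for the standard error and filled points for an adjusted p under 0.05. The agonists Il33, Il1a and Il1b and the antagonists Il1rn and Il1r2 lie above 3, while Il1rap and Il1rl1 lie near 0 and Il1r1 at 1.17 with a wide bar. Of the further genes, Il36g and Il18rap lie at 5.45 and 4.30.

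Among the agonists, Il1a (ENSMUSG00000027399) encodes IL-1 alpha, which is active as a precursor and acts as an alarm signal when cells are damaged. It stood at 3217, 3815, 1531 and 2396.0 CPM in CLP replicates 1 to 4 and at 159, 113, 94.7 and 88.3 CPM in Sham replicates 1 to 4. The groups were far apart, and the lowest CLP library was the third. The means were 2740 ± 994 CPM and 114 ± 32.1 CPM (SD, n = 4), with a log2 fold change of 4.59 ± 0.32 (SE; edgeR adjusted p = 3.8e-06).

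Il1b (ENSMUSG00000027398) encodes IL-1 beta, the main secreted form of IL-1 from macrophages. Its values were 4558, 4373, 1385 and 1788 CPM in CLP and 485, 241, 210 and 194 CPM in Sham. CLP replicates 1 and 2 were well above replicates 3 and 4, and Sham replicate 1 stood above the other Sham libraries. Even so the lowest CLP library exceeded the highest Sham library. The log2 fold change was 3.42 ± 0.46 (edgeR adjusted p = 0.00013), and it lay between 3.15 and 3.84 when any 1 library was left out.

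Il33 (ENSMUSG00000024810) encodes IL-33, a nuclear alarmin best known from stromal and endothelial cells. It was at 10.1, 22.2, 16.1 and 11.6 CPM in CLP and at 0.550, 0.0610, 0.134 and 0.122 CPM in Sham. All CLP libraries were clearly positive, while the Sham libraries were close to 0. The sums of counts were 1254 and 28, and the ratio of scaled counts was 67.1, with an exact 95% interval of 46.2 to 101 that covers counting error only. Of the 28 Sham counts, 18 were in Sham replicate 1, and without it the ratio was 140 (75.8 to 293), a value computed after the data were seen. The edgeR log2 fold change was 6.07 ± 0.51 (adjusted p = 7.9e-06), and 7.11 without Sham replicate 1. Stellate cell and fibroblast markers (Ecm1, Dcn) summed to 153 to 182 CPM in CLP and 118 to 142 CPM in Sham. Most of this was Ecm1, and without it the sums were 41.5 to 61.3 CPM and 33.4 to 41.9 CPM. Of these markers 2 of 8 were higher and 1 lower. Sinusoidal endothelial markers (Stab2, Ptprb) summed to 486 to 540.3 CPM and 426 to 478 CPM, with 4 of 8 higher. Most of this was Stab2, which had no call. Without Stab2 the sums were 180 to 254 CPM in CLP and 143 to 172 CPM in Sham. Among all genes tested 24.9% were higher and 29.5% lower. Under total-count scaling 0 stellate cell and fibroblast markers were higher and 1 lower, and 0 endothelial markers were higher and 3 lower. The part of these cells in the Il33 value was not tested.

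Il18 (ENSMUSG00000039217) encodes IL-18, an inducer of interferon gamma whose precursor macrophages hold at rest. It measured 66.7, 103, 129 and 113 CPM in CLP and 49.3, 52.9, 52.4 and 44.4 CPM in Sham. The Sham libraries were closely grouped, and CLP replicate 1 was the lowest of its group. The rise was small, with a log2 fold change of 1.05 ± 0.18 (edgeR adjusted p = 0.00062). When libraries were scaled by total counts alone, it was 0.49 (adjusted p = 0.03).

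**Figure D2:**
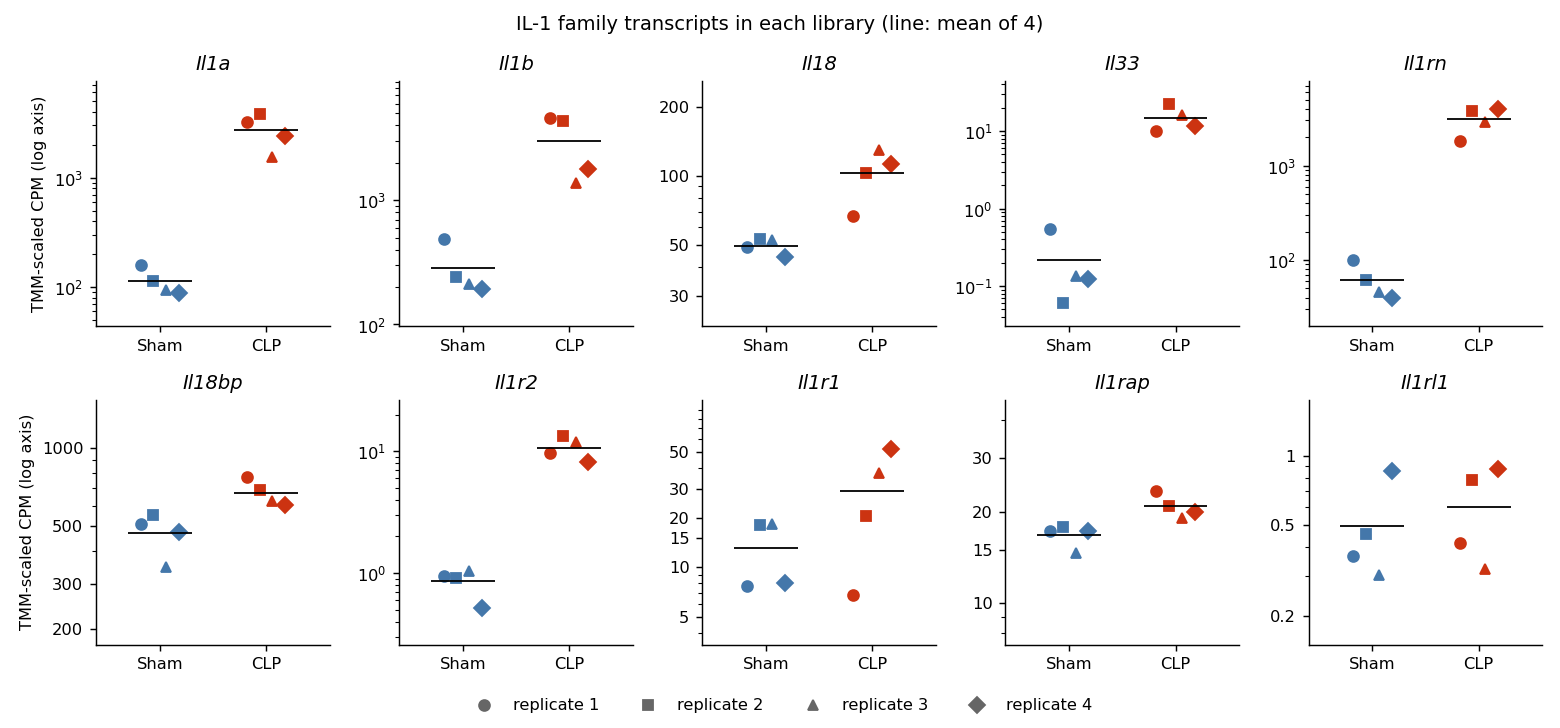
CPM of each of the 10 genes in each of the 4 CLP and 4 Sham libraries, on log axes, with a marker shape for each replicate and a line at the group mean. Il1a, Il1b, Il1rn, Il33 and Il1r2 show wide gaps between the groups, and Il1r1 and Il1rl1 overlap.

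Among the antagonists, Il1rn (ENSMUSG00000026981) encodes IL-1Ra, whose secreted form competes with both IL-1 ligands. It was at 1817, 3810.3, 2863 and 3924 CPM in CLP and at 100.3, 61.7, 45.5 and 40.1 CPM in Sham. CLP replicate 1 was the lowest of the CLP libraries, in contrast to its place in Il1b, where it was the highest. The log2 fold change was 5.65 ± 0.38 (edgeR adjusted p = 3.4e-06). Il1a, Il1b and Il1rn together took 0.480% to 0.960% of all counts in the CLP libraries and 0.0398% to 0.0866% in the Sham libraries.

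Il1r2 (ENSMUSG00000026073), the decoy receptor, was at 9.70, 13.3, 11.9 and 8.10 CPM in CLP and at 0.947, 0.914, 1.04 and 0.519 CPM in Sham. The groups did not overlap, and the spread within each was small beside the gap. The sums of counts were 912 and 109, and the log2 fold change was 3.65 ± 0.26 (edgeR adjusted p = 3.8e-06). Neutrophils are known to carry this decoy. Their marker sum with Csf3r, given above, was lower in CLP replicates 1 and 2 (239 and 356 CPM) than in replicates 3 and 4 (581 and 556 CPM). Its part in the Il1r2 value was not tested.

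Il18bp (ENSMUSG00000070427), the soluble inhibitor of IL-18, was abundant in both groups, at 771, 690, 625 and 604 CPM in CLP and 511, 550, 349 and 476 CPM in Sham. The gap between the groups was narrow. The log2 fold change was 0.51 ± 0.16 (edgeR adjusted p = 0.0168), and it was -0.035 (adjusted p = 0.83) under total-count scaling, so the direction depends on the scaling. Il18bp overlaps Numa1 on the opposite strand in GENCODE M21. Numa1 had 22823 summed counts in Sham and 6906 in CLP, and the sources used here do not give the strand setting of the count.

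The signalling receptor Il1r1 (ENSMUSG00000026072) varied widely, at 6.78, 20.4, 37.5 and 52.2 CPM in CLP and 7.73, 18.0, 18.3 and 8.04 CPM in Sham. CLP replicate 1 was below every Sham library, and CLP replicates 2 to 4 were above them. The log2 fold change of 1.17 ± 0.53 did not pass (edgeR adjusted p = 0.0838). Without CLP replicate 1 it was 1.50 and passed (adjusted p = 0.0097).

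Il1rap (ENSMUSG00000022514), the accessory chain shared by the IL-1 and IL-33 receptors, was nearly level, at 23.4, 20.8, 19.1 and 19.9 CPM in CLP and 17.3, 17.9, 14.6 and 17.3 CPM in Sham. Its log2 fold change of 0.31 ± 0.12 passed narrowly (edgeR adjusted p = 0.0413). The call was lost in 9 alternatives of 14 with the direction kept, and under total-count scaling the value was -0.24 (adjusted p = 0.088).

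Il1rl1 (ENSMUSG00000026069), the IL-33 receptor chain, was close to the limit of detection, at 0.416, 0.786, 0.321 and 0.878 CPM in CLP and 0.367, 0.457, 0.302 and 0.855 CPM in Sham. The groups overlapped throughout. With 50 counts in CLP and 64 in Sham, the scaled count ratio was 1.17 (exact 95% counting interval 0.792 to 1.72), and no difference was detectable at this depth (log2 fold change 0.26 ± 0.45, edgeR adjusted p = 0.649). Under total-count scaling the log2 fold change was -0.30. Mast cells, basophils and type 2 innate lymphoid cells carry this receptor. Their markers, led by Areg and Gata3, summed to 0.366 to 2.46 CPM in CLP and at most 0.183 CPM in Sham. Without Areg the sums were 0.195 to 0.229 CPM in CLP and at most 0.183 CPM in Sham. None of these markers could be tested, and Fcer1a, Mcpt8 and Mcpt4 had 0 counts in all libraries. Gene counts do not separate the membrane and soluble forms of ST2 and IL-1RAcP, nor the secreted and intracellular forms of IL-1Ra.

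The promoters of the 3 genes with the most counts in CLP are shown because all 3 rose. Each window holds the 250 bases before a transcript start on the gene's own strand, 5′ to 3′, from RefSeq (GRCm38.p6), and entries were found for all 10 genes, in 15 windows. Capitals mark TATAAA or TGANTCA, the latter being the core bound by AP-1 factors. Il1rn is shown at a pair of its starts.
Il1a, chr2:129309973-129310222, minus strand: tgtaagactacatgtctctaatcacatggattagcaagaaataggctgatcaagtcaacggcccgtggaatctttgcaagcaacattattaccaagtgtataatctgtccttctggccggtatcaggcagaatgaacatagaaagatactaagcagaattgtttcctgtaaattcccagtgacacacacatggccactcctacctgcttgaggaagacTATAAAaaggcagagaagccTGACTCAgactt
Il1b, chr2:129371140-129371389, minus strand: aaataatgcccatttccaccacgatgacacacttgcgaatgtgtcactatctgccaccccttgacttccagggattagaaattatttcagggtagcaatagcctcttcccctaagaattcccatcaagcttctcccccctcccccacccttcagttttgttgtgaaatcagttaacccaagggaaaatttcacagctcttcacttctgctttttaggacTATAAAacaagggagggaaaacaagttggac
Il1rn, chr2:24336610-24336859, plus strand: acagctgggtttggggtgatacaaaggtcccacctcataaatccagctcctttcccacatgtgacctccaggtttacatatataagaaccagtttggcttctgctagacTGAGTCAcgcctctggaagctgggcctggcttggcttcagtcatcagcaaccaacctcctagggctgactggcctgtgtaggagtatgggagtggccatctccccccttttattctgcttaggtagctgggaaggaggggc
Il1rn, chr2:24345041-24345290, plus strand: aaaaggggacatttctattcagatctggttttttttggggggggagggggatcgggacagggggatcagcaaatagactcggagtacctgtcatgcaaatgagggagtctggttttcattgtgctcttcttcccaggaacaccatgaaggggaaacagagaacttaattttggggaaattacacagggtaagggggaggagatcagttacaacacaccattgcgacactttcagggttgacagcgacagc
TATAAA lay 32 to 27 bases before the start in Il1a and 31 to 26 bases before it in Il1b. TGANTCA lay 12 to 6 bases before the start in Il1a and 141 to 135 bases before the first Il1rn start shown. No searched motif lay in the second Il1rn window shown.

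The search covered both strands for 5 motifs that do not overlap in these windows, and shares are over 32851 RefSeq windows of the same length. TATAAA was in 5 of the 15 windows of the 10 genes (Il1a, Il1b, Il18 and both Il33 windows), against 12.4% of all windows. TGANTCA was in 2 of 15, against 6.75%. TTGCNNAA, a core bound by C/EBP factors, was in 4 of 15 (Il1r1, Il1rl1, Il18bp and Il33), against 9.56%. The kappaB motif was in 1 of 15 (Il1r1), against 7.25%, and the interferon-stimulated response element core (GAAA, any 2 bases, GAAA) in 0 of 15, against 2.98%. These are matches of letters within short windows and say nothing of binding.

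The balance of agonist to antagonist was measured within each library as a ratio per transcript length, which does not depend on the scaling of libraries. The ratio to Il1rn was lower in all 4 CLP libraries for Il1b and in 3 of 4 for Il1a, while the groups overlapped for Il18 to Il18bp. Il1b transcripts exceeded those of Il1rn by 8.82, 7.13, 8.43 and 8.85 times in Sham replicates 1 to 4, and by 4.58, 2.09, 0.882 and 0.831 times in CLP replicates 1 to 4. The groups did not overlap. In CLP replicates 3 and 4 the ratio was under 1 with the lengths of the principal transcripts but 1.40 and 1.32 with those of all exons joined (exon union), so which gene of the pair was more abundant there depends on the length used. The mean log2 ratio was 0.70 ± 1.17 in CLP and 3.05 ± 0.15 in Sham (SD, n = 4), a difference of -2.35 or 5.08-fold (two-sided exact permutation p = 0.0286, the smallest this design allows, and 0.0571 adjusted over 4 ratios).

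Il1a to Il1rn was 2.22, 1.25, 0.670 and 0.765 in CLP and 1.99, 2.30, 2.61 and 2.76 in Sham. CLP replicate 1 lay among the Sham libraries, and the other 3 CLP libraries lay below them. With exon-union lengths the values in CLP replicates 3 and 4 were 1.50 and 1.71, again on the other side of 1. The mean log2 ratio differed by -1.13 (exact permutation p = 0.0571, adjusted 0.0762). The receptor pair Il1r1 to Il1r2 went from 1.96, 4.71, 4.24 and 3.67 in Sham to 0.171, 0.374, 0.769 and 1.57 in CLP. No library of one group reached the other, and in 3 of 4 CLP libraries the decoy exceeded the signalling receptor. The difference was -2.72 on the log2 scale or 6.57-fold (exact permutation p = 0.0286, adjusted 0.0571).

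Il18 to Il18bp was 0.160, 0.276, 0.384 and 0.346 in CLP and 0.179, 0.178, 0.279 and 0.173 in Sham. The groups overlapped, and the inhibitor exceeded the cytokine in all 8 libraries. The log2 difference was 0.48 (exact permutation p = 0.257, adjusted 0.257). All 4 ratios miss a threshold of 0.05 after adjustment, and in each the direction was the same whichever library was left out and with 2 counts in place of 0.5 added to each gene. Exon-union lengths, tried after the values were seen, multiply each ratio by the same factor in every library (2.24 for Il1a/Il1rn, 1.59 for Il1b/Il1rn, 1.58 for Il18/Il18bp and 1.23 for Il1r1/Il1r2), so the differences between the groups are the same. Il18 to Il18bp stayed under 1 in all 8 libraries and Il1r1 to Il1r2 in the same number of CLP libraries, 3.

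**Figure D3:**
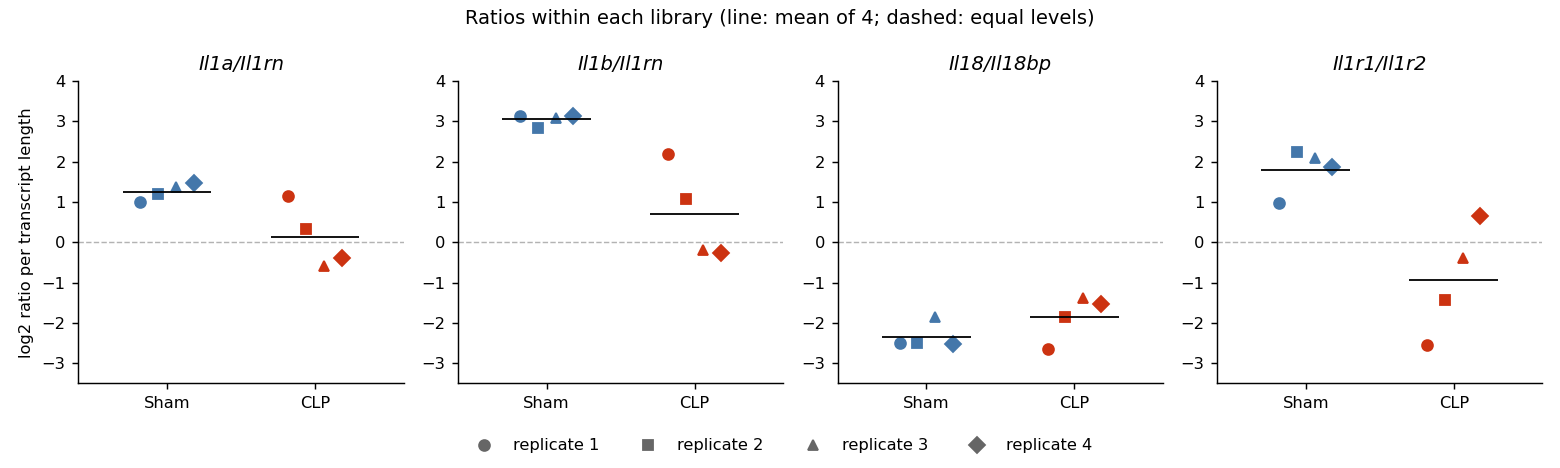
Ratios per transcript length of Il1a/Il1rn, Il1b/Il1rn, Il18/Il18bp and Il1r1/Il1r2 in each library, on a log2 axis, with a marker shape for each replicate, a line at the mean and a dashed line at equal levels, all with the lengths of the principal transcripts. Il1b/Il1rn and Il1r1/Il1r2 are lower in all 4 CLP libraries than in any Sham library, and Il18/Il18bp overlaps.

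Within the CLP group the ligands Il1a and Il1b and the antagonist Il1rn were ordered differently among the libraries. Il1a and Il1b were both higher in replicates 1 and 2 than in replicates 3 and 4, whereas Il1rn and Il1r1 were lowest in replicate 1 and highest in replicate 4. The ligands Il18 and Il33 were also lowest in replicate 1, with Il18 highest in replicate 3 and Il33 in replicate 2. The ratio of Il1b to Il1a per length, computed after the values were seen, was 2.06, 1.67, 1.32 and 1.09 in CLP and 4.43, 3.10, 3.23 and 3.20 in Sham, lower in every CLP library than in any Sham library. The neutrophil marker sum, with Csf3r, ran from 239 CPM in CLP replicate 1 to 581 CPM in replicate 3. Without Csf3r it spanned 91.7 to 274 CPM in the CLP libraries. In Sham, replicate 1 was the highest library for Il1a, Il1b, Il1rn and Il33. Neither the neutrophil sum nor the place of CLP replicate 1 was tested as a part of these differences.

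**Figure D4:**
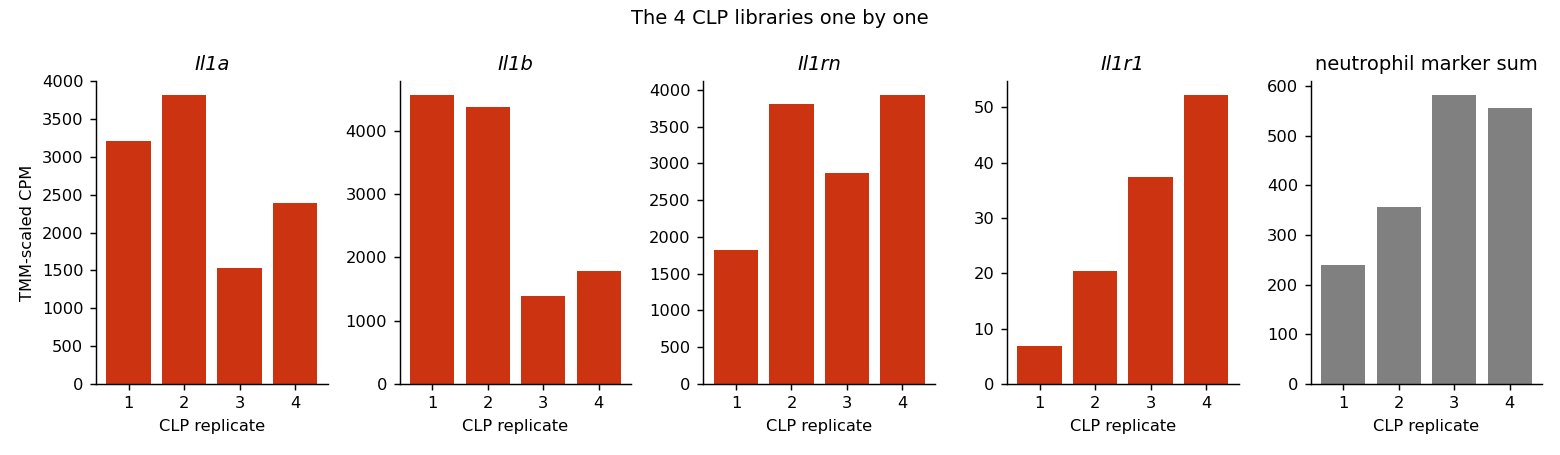
CPM of Il1a, Il1b, Il1rn and Il1r1 and the summed CPM of the neutrophil markers, Csf3r included, in the 4 CLP libraries, 1 bar per library, with axes from 0. Il1a and Il1b are high in replicates 1 and 2, and Il1rn, Il1r1 and the neutrophil markers are lowest in replicate 1.

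Levels of different genes can be compared only per length, here as RPKM (CPM divided by the length of the principal transcript in kilobases). In Sham the most abundant of the 10 were Il18bp at 296 ± 54.8 RPKM and Il1b at 209 ± 100.5 RPKM, which overlapped, followed by Il18 at 57.9 ± 4.53 and Il1a at 57.7 ± 16.3 RPKM, which overlapped too. Il1rn was at 25.0 ± 11.0 RPKM. Below it came Il1rap at 3.71 ± 0.320, Il1r1 at 2.24 ± 1.02 and Il1r2 at 0.603 ± 0.162 RPKM, and last Il1rl1 at 0.0934 ± 0.0469 and Il33 at 0.0852 ± 0.0882 RPKM, which overlapped. In CLP the order began with Il1b at 2232 ± 1233, Il1a at 1388 ± 504 and Il1rn at 1254 ± 396 RPKM, whose neighbours overlapped. Il18bp followed at 422 ± 47.2 and Il18 at 120 ± 30.9 RPKM. The rest were low in CLP, from Il1r2 at 7.57 ± 1.62 through Il33 at 5.89 ± 2.13, Il1r1 at 5.02 ± 3.40 and Il1rap at 4.60 ± 0.412 RPKM to Il1rl1 at 0.113 ± 0.0515 RPKM. Each of the first 4 low genes overlapped its neighbour, and Il1rl1 lay below them. With exon-union lengths Il1rn was at 561 RPKM in CLP beside 1388 for Il1a and 1587 for Il1b, so the distance of the antagonist from the ligands depends on the length used. The CLP order was the same with them, and in Sham 3 pairs of neighbours changed places.

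Of 11 further family genes, 6 had 0 counts in all libraries (Il36a, Il36b, Il36rn, Il1f10, Il1rapl1 and Il1rapl2), and Il18r1, with 20 counts in CLP and 19 in Sham, was not tested. Of the 4 tested, 2 passed as higher, Il36g and Il18rap. Both had under 10 counts in a Sham library (27 and 24 counts over all Sham libraries) and entered the test through CLP, so the count of 2 is a description only. Il36g, an epithelial and myeloid IL-36 ligand, was at 2.62, 8.54, 14.2 and 12.7 CPM in CLP and at 0.0306 to 0.503 CPM in Sham. Its log2 fold change was 5.45 ± 0.69 (edgeR adjusted p = 9.1e-05). Il18rap, the accessory chain of the IL-18 receptor, was at 1.33, 3.88, 4.95 and 4.97 CPM in CLP and 0.152 to 0.235 CPM in Sham. The log2 fold change of Il18rap was 4.30 ± 0.46 (edgeR adjusted p = 3.1e-05). Natural killer and T cell markers, led by Gzma and Cd3e, summed to 2.75, 1.94, 2.02 and 4.44 CPM in CLP replicates 1 to 4. In Sham their sums were 0.611 to 1.25 CPM, and none of these markers was tested. The neutrophil marker sum, with Csf3r, was 239, 356, 581 and 556 CPM in CLP replicates 1 to 4. The part of these cells in the Il18rap and Il36g values was not tested. Il1rl2, the IL-36 receptor, did not differ by more than its error (0.04 ± 0.15, edgeR adjusted p = 0.815), though it was -0.51 and called lower under total-count scaling. The inhibitory receptor Sigirr had a log2 fold change of 0.48 ± 0.41 (edgeR adjusted p = 0.34).

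Downstream of the receptor, 11 of 22 signalling genes rose, 2 fell and 9 had no call, with a median log2 fold change of 0.48. Called genes made up 59.1% of the list, near the 54.3% of all genes tested, of which 24.9% were higher and 29.5% lower. Under total-count scaling 7 were higher and 6 lower, with a median of -0.08. Rises included Tifa, an adaptor of TRAF6 signalling (569 ± 109 against 80.3 ± 22.3 CPM, log2 change 2.83 ± 0.22, edgeR adjusted p = 6e-06), and Zc3h12a, the RNase regnase-1 that degrades cytokine transcripts (359 ± 7.66 against 57.8 ± 30.5 CPM; 2.63 ± 0.30). The kinase Map3k8 rose by 1.36 ± 0.16, and Tollip, an inhibitor of IRAK signalling, rose by 1.35 ± 0.14. Tab1, a partner of the kinase TAK1, fell from 11.7 ± 1.09 to 2.07 ± 0.50 CPM (log2 fold change -2.49 ± 0.20, edgeR adjusted p = 6.4e-06).

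For the maturation and release of IL-1 beta and IL-18, 5 of 16 genes rose, 5 fell and 6 had no call, with a median of -0.02. The shares of 31.2% in each direction were near those of all genes tested, 24.9% higher and 29.5% lower, so the counts are no result about this list. Under total-count scaling 4 were higher and 10 lower. The inflammasome sensor Nlrp3 rose from 172 ± 47.4 to 1244 ± 408 CPM (change 2.86 ± 0.27 on the log2 scale, edgeR adjusted p = 1.5e-05), Nlrc4 by 1.85 ± 0.18 and the lipopolysaccharide sensor Casp4 by 2.32 ± 0.27. The ATP-gated channel P2rx7 fell from 91.8 ± 4.89 to 38.1 ± 1.81 CPM (log2 fold change -1.27 ± 0.09, edgeR adjusted p = 4e-06), and Txnip fell from 619 ± 90.6 to 147 ± 36.3 CPM (-2.08 ± 0.19). Casp1, which cleaves both cytokines and was chosen after its values were seen, had a mean of 68.9 ± 10.4 CPM after CLP and 68.8 ± 3.39 CPM after sham surgery (edgeR adjusted p = 0.994), and it was -0.55 and called lower under total-count scaling.

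**Figure D5:**
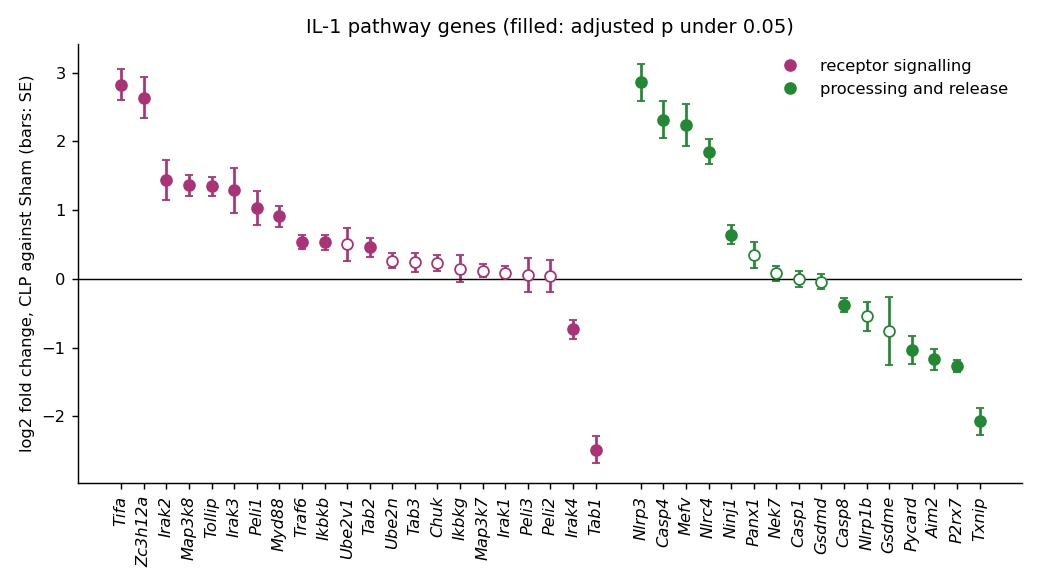
Log2 fold changes, CLP against Sham, of the tested genes of the IL-1 signalling list (22) and of the cytokine processing and release list (16), with bars for the standard error and filled points for an adjusted p under 0.05. Tifa and Zc3h12a lead the first list and Tab1 is its lowest, while Nlrp3 leads the second and Txnip is its lowest.

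The 3 genes most like Il1b in their log2 CPM over the 8 libraries, among 7917 genes with a mean of at least 10 CPM, were Skil (r = 0.996), R3hdm2 (r = 0.995) and Usp9x (r = 0.994). Skil averaged 793 ± 136 CPM after CLP and 387 ± 40.1 CPM after sham surgery. The 8 points share the split between CLP and Sham and are given as a description only. They stand for many, since 388 genes had an r of at least 0.95 and 1079 an r of at least 0.9.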

How the data were processed

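RNA from sorted Kupffer cells was extracted with the Aurum Total RNA kit, and stranded TruSeq libraries were sequenced on an Element AVITI, per the labels' protocols. The deposited values are whole read counts per Ensembl gene. The authors' pipeline named FastQC, STAR 2.7.10b, featureCounts, DESeq2 and mm39, per the submitters' processing notes; settings, strand option and annotation release: not given in the sources used here.

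Symbols and transcript lengths came from GENCODE M21, on the earlier assembly GRCm38, so none of its coordinates are printed. A symbol was found for 52081 IDs holding 99.8% of the counts. Genes passing filterByExpr were scaled with TMM (factors 0.801 to 0.837 in CLP and 1.16 to 1.28 in Sham) and tested in R 4.3.3 with edgeR 4.0.16 (robust quasi-likelihood, threshold 0.05), which was tested on simulated data. The SE was approximated as the absolute log2 fold change divided by the root of the F statistic. Library ratios added 0.5 counts per gene, used the longest APPRIS principal transcript and were tested by exact permutation over 35 splits. Count intervals are exact at 95% and cover counting error only. Alternatives used DESeq2 1.42.0, limma 3.58.1 voom, other scalings, no filter, a replicate block and each library left out.

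The members, gene lists and named genes were chosen with earlier results of these data known. Named by rule were all 10 members, tested further family genes and the 5 smallest p in each pathway list. The rules also covered the 2 most abundant markers per cell type and the 3 genes most correlated with Il1b. Casp1, the other markers, the untested family genes and Numa1 were named outside these rules.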

Additional observations from a re-analysis of the deposited data

Results flagged for a closer look

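Among 28 groups of 4 libraries, 3 held a library far from the other 3, by the gap to its nearest neighbour over the group's range; chance gives about 1 such group in 20. Il1b was at 485 CPM in Sham replicate 1, against 194 to 241 CPM in the other Sham libraries. Il33 was at 0.55 CPM in Sham replicate 1, against 0.061 to 0.134 CPM in the others. The log2 ratio of Il18 to Il18bp was -1.84 in Sham replicate 3, against -2.53 to -2.48 in the others.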

How the results depend on the processing

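Il1a, Il1b, Il18, Il33, Il1rn and Il1r2 kept their direction and call in all 14 alternatives. Total-count scaling shifted the median log2 fold change of all genes by -0.56 and gave 1715 genes higher and 8292 lower, with 17.1% of calls upward in place of 45.8%. Under it Il18bp was at -0.035, Il1rap at -0.24 and Il1rl1 at -0.30, and 6 of the 10 genes were called higher; 7 or 8 were in every other alternative, and 0 were lower in any. The cause of these shifts was not tested. Leaving out 1 library gave 3244 to 4235 genes higher and 3716 to 4997 lower. The numbers were not taken as pairs, because the labels do not say that equal numbers mark a shared animal, day or batch. Deviations from the group means correlated at r = 0.172, -0.125, 0.126 and -0.0853 between same-numbered libraries. Between differently numbered libraries r was -0.408 to 0.335, so these values cannot settle the pairing. A replicate block gave 3491 genes higher and 4303 lower, with Il1rap losing its call (adjusted p = 0.063). Leaving out 1 library leaves 3 against 4 for the ratios, where the smallest exact p is 0.0571, so those were read by direction alone. Counts of 28 (Il33 in Sham) and 50 (Il1rl1 in CLP) limit the precision of those genes.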
